A study of Mus musculus with 106 samples.

Results

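The neutrophil granule genes described here are 10 genes out of 25873 gene names in the count tables: 4 for primary granule proteins (Elane, Mpo, Prtn3 and Ctsg), 4 for secondary granule proteins (Ltf, Camp, Ngp and Lcn2) and 2 for the cytosolic S100 proteins (S100a8 and S100a9). They were chosen by symbol, with their change at 10 °C in bone marrow and spleen already known, so for these 2 tissues their values are a description and no test is read from them. All 10 were listed in each of the 4 tables.

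Neutrophils carry their antimicrobial proteins in granules that are made one kind after another while the cell matures in the bone marrow. Promyelocytes make the primary (azurophil) granules with myeloperoxidase and the serine proteases, myelocytes and metamyelocytes then make the secondary (specific) granules with lactoferrin and its companions, and the mature cell that leaves for the blood has largely stopped transcribing both sets. Transcripts of granule proteins therefore mark developing neutrophils more than circulating ones, whereas S100a8 and S100a9, which together form the abundant cytosolic protein calprotectin, stay high in mature cells. The mouse spleen also holds some blood cell formation, in its red pulp.

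The mice were wild-type male C57BL/6J animals, 8 weeks old at the start, that were kept 2 to a cage without nesting material. The cold group (labelled CE) spent 5 days at 18 °C, 5 days at 14 °C and 2 weeks at 10 °C, the warm group spent 4 weeks at 34 °C, and the controls (RT) stayed at 22 °C. The labels give an age of 11 weeks for the tissues of the cold experiment and 12 weeks for those of the warm one and for all quadriceps libraries, and per the methods the mice of the cold and the warm experiment came from different suppliers. Bulk RNA sequencing of 106 libraries lets 11 tissues from the cold mice and 5 from the warm mice be compared with their controls. Bone marrow has 6 libraries per group from 6 individual mice, spinal cord 5 per group from individual mice, quadriceps 6 controls that the labels do not divide between the experiments, and the other groups have 3 libraries, which per the methods hold pools of 2 mice (in the supplement, iBAT of the warm experiment is mostly from individual mice).

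Library totals ran from 4262403 to 62880248 counts. In bone marrow all 10 °C libraries were deeper (18220849 to 22139577 counts) than all 22 °C libraries (15591374 to 17834075), so depth moved with temperature there and its part in the result was not tested. Defining markers of the labelled tissues were present, for example Alb at 47525 to 105821 CPM in liver and Acta1 at 29914 to 56979 CPM in quadriceps, and lowest in bone marrow, where Vpreb1 of B cell precursors had 7.45 to 22.7 CPM. Levels are in CPM, counts scaled by the library total and TMM factors unless stated, changes are log2 fold changes of 10 °C (or 34 °C) minus 22 °C with their standard error from edgeR's quasi-likelihood fit, and a gene is called when its fold change exceeds 1.5 at an unadjusted p no higher than 0.05.

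On GRCm38 the primary granule genes Prtn3 (ENSMUSG00000057729, chr10:79874476-79883174, plus strand), encoding proteinase 3, and Elane (ENSMUSG00000020125, chr10:79886247-79888215, plus strand), encoding neutrophil elastase, are neighbours, 3072 bases apart. The next gene on the same strand, 2637 bases past Elane, is Cfd (ENSMUSG00000061780, chr10:79890853-79892655, plus strand), which encodes the adipocyte product adipsin. Mpo (ENSMUSG00000009350, chr11:87793581-87804413, plus strand) encodes myeloperoxidase and Ctsg (ENSMUSG00000040314, chr14:56099881-56102574, minus strand) cathepsin G. Of the secondary granule genes, Camp (ENSMUSG00000038357, chr9:109847379-109849617, minus strand), encoding the antimicrobial cathelicidin, Ngp (ENSMUSG00000032484, chr9:110419747-110423012, plus strand), encoding neutrophilic granule protein, and Ltf (ENSMUSG00000032496, chr9:111019271-111042767, plus strand), encoding the iron-binding lactoferrin, lie within 1.20 megabases of each other. Lcn2 (ENSMUSG00000026822, chr2:32384633-32388252, minus strand) encodes lipocalin 2, a binder of bacterial siderophores that epithelia, hepatocytes and adipocytes can make too. The S100 genes lie 22596 bases apart (S100a8: ENSMUSG00000056054, chr3:90668978-90670035, plus strand; S100a9: ENSMUSG00000056071, chr3:90692632-90695721, minus strand).

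Since the members of a class moved together, stretches upstream of the RefSeq start are shown for 2 primary and 2 secondary granule genes (RefSeq, GRCm38.p6, 5′ to 3′, 185 bases each that hold no annotated exon of GENCODE M21; the stretch of Prtn3 lies inside the annotated span of the gene, which starts further upstream). Capitals mark GAGGAAG, a core of sites for the myeloid factor PU.1, in Elane and Prtn3, and TTGCNNAA, a core of C/EBP sites, in Ltf and Ngp, on either strand.
Elane (chr10:79886062-79886246, plus strand): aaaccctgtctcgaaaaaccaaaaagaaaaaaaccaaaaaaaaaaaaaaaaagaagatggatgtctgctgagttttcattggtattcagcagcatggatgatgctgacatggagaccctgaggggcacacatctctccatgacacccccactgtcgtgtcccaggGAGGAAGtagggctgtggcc
Prtn3 (chr10:79879417-79879601, plus strand): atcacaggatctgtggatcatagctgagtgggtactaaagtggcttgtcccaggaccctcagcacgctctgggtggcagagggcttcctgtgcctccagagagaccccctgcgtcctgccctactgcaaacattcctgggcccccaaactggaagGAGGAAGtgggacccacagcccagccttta
Ltf (chr9:111019042-111019226, plus strand): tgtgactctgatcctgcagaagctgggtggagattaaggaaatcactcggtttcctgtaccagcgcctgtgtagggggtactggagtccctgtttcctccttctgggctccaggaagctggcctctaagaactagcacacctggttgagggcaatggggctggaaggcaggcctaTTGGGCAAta
Ngp (chr9:110419558-110419742, plus strand): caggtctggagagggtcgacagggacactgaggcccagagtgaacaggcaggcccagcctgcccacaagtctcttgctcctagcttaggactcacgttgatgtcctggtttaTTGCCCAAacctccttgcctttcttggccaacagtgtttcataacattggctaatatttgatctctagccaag
In the full 250 bases before the start, GAGGAAG was found in 4 of 4 primary, 1 of 4 secondary and 1 of 2 S100 genes, against 10.4% of 27018 promoters. TTGCNNAA was found in 0 of 4 primary, 3 of 4 secondary and 1 of 2 S100 genes, against 9.56% of promoters. The other motifs searched, on both strands as well, gave these counts: TGTGGT (RUNX) was in 2 of 10 members, AACTGC (MYB) in 2 and TATAAA in 2, against 14.2%, 11.1% and 13% of promoters. No matches of different motifs overlapped in the members, and a match of letters is not a binding site.

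In bone marrow, the main site of neutrophil formation, every member was lower at 10 °C by a small amount. The changes ran from −0.49 to −0.16 on the log2 scale, beside a median of 0.0128 over all 12525 genes tested. The 10 members took 5.50 ± 0.638 (SD, n = 6) percent of all counts at 22 °C. At 10 °C their share was 4.09 ± 0.0982 (SD, n = 6) percent. In bulk tissue, fewer cells of a type and less RNA per cell cannot be told apart.

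The primary granule genes had the smallest changes. Elane ranged from 512 to 678 (median 607) CPM in the 6 libraries at 22 °C and from 482 to 579 (median 538) at 10 °C, a log2 fold change of −0.16 ± 0.0714. For Mpo the libraries ran from 1780 to 2267 (median 2056) CPM at 22 °C and from 1612 to 1901 (median 1830) at 10 °C, a change of −0.19 ± 0.0698. For both genes the groups overlapped, with the lowest controls inside the cold range. Prtn3 ran from 349 to 507 (median 414) CPM at 22 °C and from 321 to 376 (median 345) at 10 °C (−0.31 ± 0.0810), and Ctsg ran from 176 to 236 (median 201) CPM at 22 °C and from 152 to 186 (median 176) at 10 °C (−0.26 ± 0.0722). Here too the groups overlapped, and 22 °C replicate 3 was the lowest control for both genes.

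The secondary granule genes had larger changes and their groups did not overlap. Ngp, the most abundant of them per kilobase of exon, ranged from 7594 to 11609 (median 10630) CPM at 22 °C and from 7079 to 7502 (median 7196) at 10 °C, a change of −0.47 ± 0.0873. Ltf had values from 5874 to 8711 (median 8108) CPM at 22 °C and from 5423 to 5712 (median 5579) at 10 °C (−0.47 ± 0.0819). The cold libraries were close together for both, whereas the controls were spread, with 22 °C replicate 3 just above the highest cold library. Camp ran from 2343 to 2994 (median 2928) against from 1950 to 2221 (median 2116) CPM (−0.40 ± 0.0662), and Lcn2 from 2366 to 3606 (median 3235) against from 2126 to 2322 (median 2157) CPM (−0.49 ± 0.0839), the largest change of the members. S100a8 ranged from 8359 to 12390 (median 10957) CPM at 22 °C and from 7433 to 8243 (median 7785) at 10 °C (−0.47 ± 0.0844). S100a9 ranged from 13445 to 21164 (median 18117) CPM at 22 °C and from 12387 to 13643 (median 12730) at 10 °C (−0.47 ± 0.0936), and overlapped through 22 °C replicate 3 alone, which lay below the highest cold library.

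No member passed both call limits in bone marrow by edgeR's quasi-likelihood test, since no fold reached 1.5. The exact test and DESeq2 called 0 members as well, and 0.647% of the genes tested were called lower. All 10 had an unadjusted p of at most 0.05, beside 18% of the genes tested that were lower. The groups did not overlap in 5 members, and 3.17% of all genes tested were lower at 10 °C without overlap. The members were chosen on this contrast, so nothing is read from these shares.

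**Figure D1:**
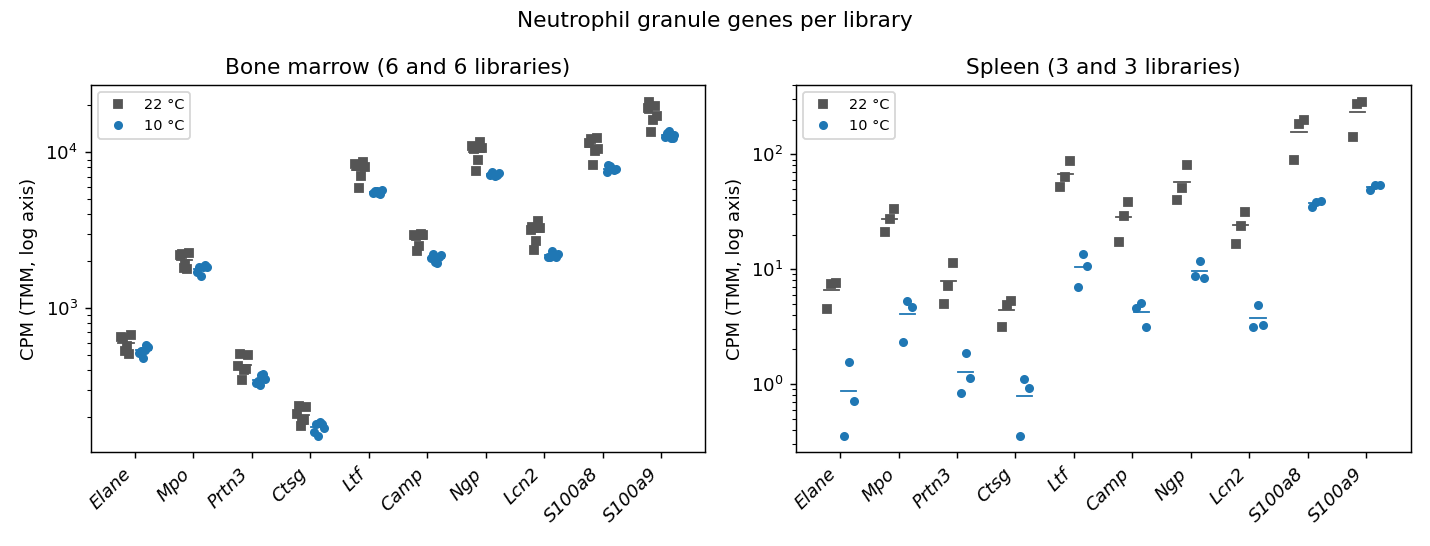
CPM (log axis) of each member in each library of bone marrow (left) and spleen (right), squares at 22 °C and circles at 10 °C, with a short line at the group mean. In bone marrow the cold points sit slightly below the controls, and in spleen all 3 cold points lie below all 3 controls for each of the 10 genes.

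Per kilobase of exon, the S100 genes stood highest in bone marrow at 22 °C, S100a9 with 34072 ± 5377 CPM per kilobase (mean ± SD, n = 6) and S100a8 with 15650 ± 2175. The secondary granule genes followed, from Ngp with 8229 ± 1222 and Camp with 3662 ± 359 to Ltf with 2236 ± 307 and Lcn2 with 1172 ± 173. The primary granule genes were lowest. Elane had 608 ± 71.2 and Mpo 594 ± 64.3, which differ by less than their SD, and Prtn3 with 249 ± 35.8 and Ctsg with 199 ± 23 came last.

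Between the marrows, the genes of a class varied together more closely than with those of the other class, and no test of that was run. After the group means were subtracted, log2 CPM of the primary genes correlated with each other over the 12 libraries with r of 0.806 to 0.982, and those of the secondary and S100 genes with r of 0.771 to 0.987. Pairs of a primary gene with a secondary or S100 gene had r of 0.191 to 0.581. These correlations describe libraries that share their depth and scaling factor within each pair.

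Among 9628 other genes of at least 3 on the log2 CPM scale, the 5 with a pattern most like the mean of the primary genes over the 12 libraries were Nkg7 (r 0.978, or 0.962 within temperatures), Ms4a3 (0.936 and 0.891), Ubxn8 (0.902 and 0.833), Gstm1 (0.901 and 0.836) and Tmed3 (0.896 and 0.811). Ms4a3 is a marker of granulocyte and monocyte progenitors. Most like the secondary genes were Prdx5 (0.989 and 0.973), Chil3 (0.989 and 0.957), Trem3 (0.988 and 0.952), Cd177 (0.986 and 0.947) and Arpc4 (0.985 and 0.963). Cd177 is a surface protein of neutrophils, and Chil3, listed in the table by its older name Chi3l3, is a secreted chitinase-like protein of myeloid cells.

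In spleen, the same 10 genes were lower at 10 °C by log2 fold changes of −2.07 to −2.85, beside a median of −0.00420 over the 14117 genes tested. The 22 °C mean was 4.19 (S100a8) to 7.44 (Elane) times the 10 °C mean. Together they took 0.0610 ± 0.0187 (SD, n = 3) percent of the counts at 22 °C. In the cold they took 0.0124 ± 0.00126 (SD, n = 3) percent. No spleen library at 10 °C reached the lowest control for any member.

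Mpo had 20.9, 27.6 and 33.6 CPM in the 3 libraries at 22 °C and 2.31, 5.27 and 4.69 at 10 °C, a change of −2.75 ± 0.293. Elane had 4.53, 7.47 and 7.59 CPM at 22 °C and 0.355, 1.56 and 0.714 at 10 °C (−2.85 ± 0.454), the largest change of the members. These primary granule genes were scarce even in the controls, and their cold values rest on few reads, 40 for Elane and 176 for Mpo over 3 libraries. Prtn3 had 4.97, 7.16 and 11.4 CPM at 22 °C and 0.828, 1.85 and 1.12 at 10 °C (−2.60 ± 0.395). Ctsg had 3.15, 4.85 and 5.26 CPM at 22 °C and 0.355, 1.10 and 0.918 at 10 °C (−2.48 ± 0.395). The 10 °C replicate 1 was the lowest cold library for all 4 primary genes.

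Of the secondary granule genes, Ltf had 51.6, 63.0 and 87.9 CPM at 22 °C and 6.98, 13.6 and 10.7 at 10 °C (−2.70 ± 0.270). Ngp had 40.1, 51.3 and 80.8 CPM at 22 °C and 8.64, 11.8 and 8.37 at 10 °C (−2.57 ± 0.267). In both, as in Camp and Lcn2, 22 °C replicate 1 was the lowest control and replicate 3 the highest. Camp had 17.1, 29.1 and 38.6 CPM at 22 °C and 4.56, 5.04 and 3.16 at 10 °C (−2.70 ± 0.308). Lcn2 had 16.7, 23.7 and 31.6 CPM at 22 °C and 3.14, 4.92 and 3.27 at 10 °C (−2.65 ± 0.273). The changes of the 4 secondary genes lay within the range of the 4 primary genes.

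The S100 genes had the smallest change. S100a8 had 89.3, 183 and 198 CPM at 22 °C and 34.4, 38.5 and 39.5 at 10 °C (−2.07 ± 0.267), and S100a9 had 141, 275 and 287 and 48.4, 54.3 and 53.6 (−2.17 ± 0.246). The cold libraries were almost level for both genes, while control replicate 1 lay between them and the other controls. All 10 members passed the call limits, beside 2.04% of all genes tested that were called lower, and the groups did not overlap in any of the 10, beside 8.46% of all genes tested that were lower without overlap. An adjusted p under 0.05 was reached by 6 members, beside 0.0779% of all genes tested. This contrast too was used to choose them, so the counts are a description.

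**Figure D2:**
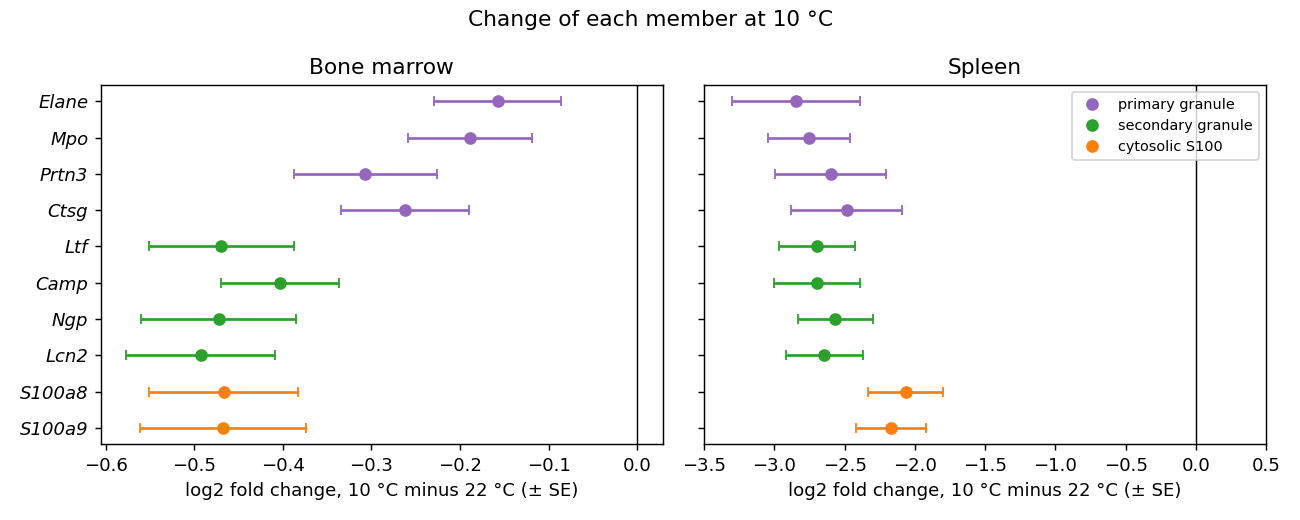
Log2 fold change of each member at 10 °C against 22 °C with its standard error, in bone marrow (left) and spleen (right, with a wider axis), coloured by class. In bone marrow the primary genes lie nearest to 0, and in spleen the S100 genes do.

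The balance of primary to secondary granule genes was measured in each library as the mean log2 CPM of the 4 primary genes minus that of the 4 secondary genes. In bone marrow the mean was −3.14 ± 0.175 (SD, n = 6) for the controls and −2.92 ± 0.101 (SD, n = 6) for the cold mice, so the cold libraries held relatively more primary granule transcripts, by 0.226 on the log2 scale. That is larger than the SD of either group, but the ranges overlapped, −3.48 to −3.01 at 22 °C and −3.07 to −2.80 at 10 °C, and the control with the lowest value was replicate 5. As a ratio of summed CPM, secondary to primary was 7.26 ± 1.06 (SD, n = 6) in controls and 6.04 ± 0.406 (SD, n = 6) in the cold. In spleen the balance was −2.15 ± 0.110 (SD, n = 3) in controls and −2.15 ± 0.454 (SD, n = 3) in the cold, a difference smaller than the SD of either group, and the cold libraries were spread from −2.67 to −1.89. The members' choice rests on these contrasts, so no p is given for the balance.

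**Figure D3:**
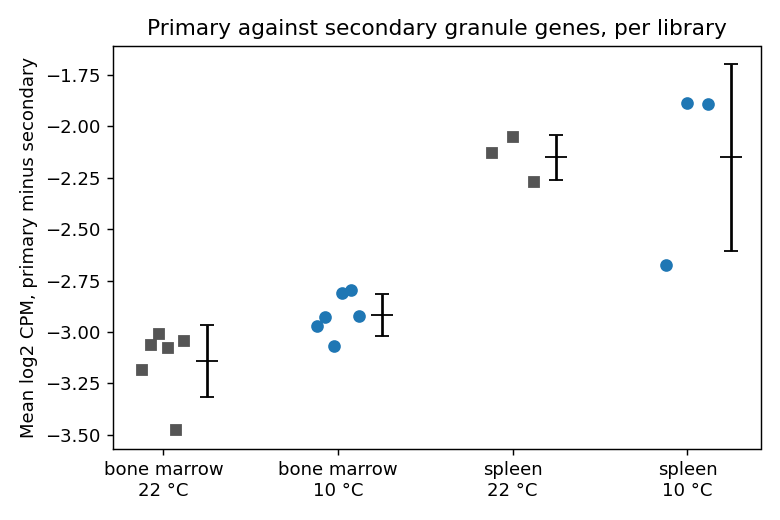
Mean log2 CPM of the 4 primary minus the 4 secondary granule genes in each library (points), with the group mean ± SD beside them. The bone marrow groups are shifted but overlap, and in spleen 1 cold library stands below the others.

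Other genes of the same lineage, from lists of the granule pathway and of granulocyte regulation, were fitted with the members. In bone marrow 14 of 14 further secondary and tertiary granule genes, 7 of 7 tested genes for granule assembly and protease inhibitors and 6 of 10 granulocyte regulators were lower at an adjusted p under 0.05, beside 11.6% of all genes tested, but edgeR's quasi-likelihood test, the exact test and DESeq2 called 0 genes of these lists, although 14, 7 and 7 had an unadjusted p of at most 0.05. Their median changes were −0.40, −0.29 and −0.28. Of 12 tested genes of mature neutrophils, 8 were lower at an adjusted p under 0.05. Their median was −0.44, beside −0.44 for the members. Ccrl2 of this list was higher, though not called (0.18, unadjusted p = 0.0305, edgeR's quasi-likelihood test). The call limits were passed by 3, beside 0.647% of all genes called lower. These were Il1r2, a decoy receptor for interleukin 1 (47.4 ± 12.1 against 26.4 ± 3.64 CPM, log2 fold change −0.84), Hdc, which makes histamine (260.2 ± 62.1 against 164 ± 14.9 CPM, log2 fold change −0.67), and Clec4e, a lectin receptor (60.7 ± 15.5 against 37.7 ± 11.0 CPM, log2 fold change −0.68). Values are means ± SD, n = 6, 22 °C before 10 °C.

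In spleen, where 2.04% of all genes tested were called lower, 9 of 14 other secondary and tertiary granule genes were, among them the gelatinase Mmp9 (49.2 ± 5.04 against 22.5 ± 1.80 CPM, log2 fold change −1.13), haptoglobin, Hp (36.2 ± 6.81 against 12.5 ± 2.5 CPM, log2 fold change −1.53), Chil3 (44.1 ± 13.3 against 12.2 ± 2.16 CPM, log2 fold change −1.83) and Cd177 (12.7 ± 2.39 against 5.16 ± 0.464 CPM, log2 fold change −1.30; means ± SD, n = 3). Of 12 tested genes of mature neutrophils 8 were called lower too, with a median of −0.86 over the 12, smaller than the change of any member. The 4 with the smallest p were Retnlg (−1.22), Hdc (−1.42), the chemokine receptor Cxcr2 (−0.60) and Clec4e (−1.06). Of 9 tested regulators 3 were called lower: Csf3r, the receptor for G-CSF (−1.06), Cebpe, which drives secondary granule genes (−1.76), and Klf5 (−1.31). Ms4a3 (−1.53) was the 1 called gene of 7 tested for granule assembly and inhibitors, a list that holds widely expressed genes such as Srgn and Cd63 and had a median of −0.03.

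Markers of other blood cells moved in the same libraries. In bone marrow 9 of 10 B cell genes and 7 of 9 red cell precursor genes were higher at an adjusted p under 0.05, beside 7.33% of all genes, and 2 B cell genes were called: Vpreb1 (9.18 ± 1.28 against 17.9 ± 3.09 CPM, log2 fold change 0.96) and Igll1 (23.3 ± 5.57 against 35.2 ± 5.33 CPM, log2 fold change 0.59), which form the surrogate light chain of B cell precursors. Summed CPM of the B cell list ran from 693 to 974 at 22 °C and from 1001 to 1124 at 10 °C, and of the red cell precursor list from 10995 to 13945 and from 14439 to 17800, without overlap in either. CPM are shares of a library, and the part of these cells' transcripts in the members' change was not tested. Of 9 eosinophil and basophil genes 1 was called lower, Ear6 (66.6 ± 27.2 against 42.8 ± 3.78 CPM, log2 fold change −0.64), whose near-identical relatives make its count uncertain. All 9 of these genes had an unadjusted p of at most 0.05, 3 were lower at an adjusted p under 0.05, and the list's median was −0.45, beside −0.44 for the members. Of 8 T cell, 6 platelet and 10 monocyte and macrophage genes the 3 tools called 0 in bone marrow, with 3, 0 and 6 at an unadjusted p of at most 0.05 by edgeR's quasi-likelihood test and medians of 0.04, 0.12 and −0.13. At an adjusted p under 0.05, 2 T cell and 0 platelet genes were higher. Of the monocyte and macrophage genes 4 were lower and 1 higher, beside 11.6% and 7.33% of all genes. Within that list Ly6c2 changed by −0.46 and Mrc1 by 0.44, so its median covers opposite moves.

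In spleen, beside the 2.04% of all genes, 5 of 8 tested eosinophil and basophil genes were called lower, and the 4 with the smallest p were Epx (−2.5), Siglecf (−1.31), Ear6 (−2.62) and Prg2 (−1.47). The list's median was −1.13, but it did not fall throughout. Prg3 (0.44, unadjusted p = 0.0378) and Il5ra (0.40, unadjusted p = 0.0219, edgeR's quasi-likelihood test) were higher, though not called. Of 6 platelet genes 4 were called lower, Gp9 (−0.75), Ppbp (−0.59), Itga2b (−0.67) and Gp1bb (−0.62), as were 2 of 9 red cell precursor genes, Klf1 (−0.84) and Epor (−0.62), and 1 of 10 monocyte and macrophage genes, F13a1 (−0.68). Of 8 B cell and 8 T cell genes tested the 3 tools called 0, with 1 and 0 at an unadjusted p of at most 0.05 by edgeR's quasi-likelihood test, and the summed CPM of the B cell list overlapped between the temperatures, from 2342 to 2804 at 22 °C and from 2729 to 3111 at 10 °C. Summed CPM of the platelet list ran from 248 to 339.6 at 22 °C and from 178 to 224 at 10 °C, and of the red cell precursor list from 3386 to 6168 and from 2489 to 4502. The part of these cells in the members' change was not tested.

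Outside bone marrow and spleen the members were scarce. At 22 °C the summed CPM of the 10 members, scaled by library size, was 44216 to 60175 (median 57414) in bone marrow and 401 to 763 (median 665) in spleen. It was 55.8 to 86.8 (median 61.9) in pgVAT (perigonadal fat), 36.8 to 79.8 (median 49.6) in spinal cord and 25.9 to 49.5 (median 46.6) in ingSAT (inguinal subcutaneous fat), ranges that overlap from each to the next, and 17.9 to 21.5 (median 19) in brain. In the other control groups the highest library had 17.5 (liver replicate 2) and the median was at most 10.0. The kit used for bone marrow, for spinal cord and in the warm experiment was not that of the remaining cold tissues, so levels in different tables are set side by side only.

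**Figure D4:**
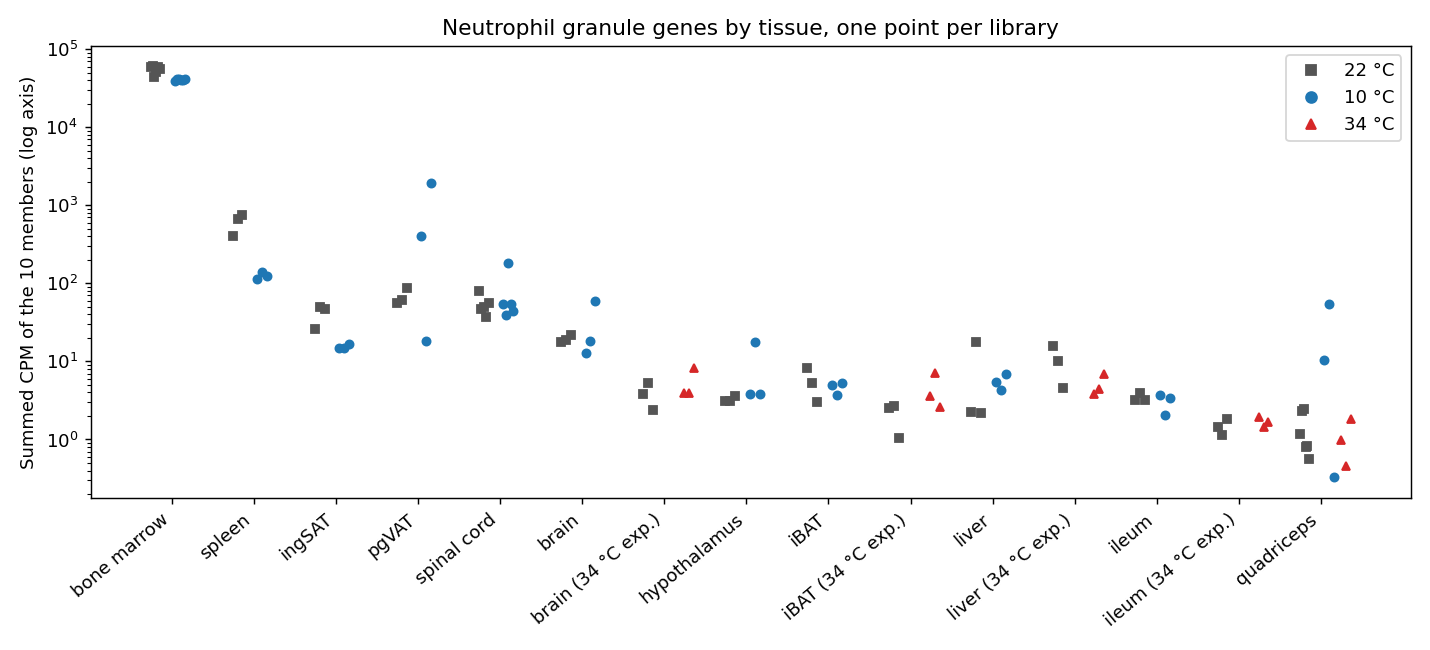
Summed CPM (log axis, scaled by library size) of the 10 members in each library by tissue, squares at 22 °C, circles at 10 °C and triangles at 34 °C. Single libraries stand above the rest of their group in spinal cord, brain and hypothalamus at 10 °C and in liver at 22 °C, and in pgVAT and quadriceps 2 of 3 cold libraries lie above all controls and the other below them.

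In these 9 cold and 5 warm comparisons 45 pairs of a member and a comparison passed the filter on low counts (average log2 CPM above 0), and 13 were called, all at 10 °C: 4 lower and 9 higher. Of the 9, Ngp, Lcn2 and S100a9 in quadriceps and S100a9 in hypothalamus passed the filter only through 1 high cold library, so that part of the count is set by the filter. Ltf in quadriceps and S100a9 in liver passed it through their cold libraries, and S100a9 in pgVAT through its controls. The filter bears on these calls too. Only Prtn3 in ingSAT had an adjusted p under 0.05 over all genes tested in its tissue, beside 2.9% of the genes there that were lower.

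In ingSAT and pgVAT Prtn3 stood above the other primary granule genes. In ingSAT it had 21.2, 15.5 and 32.6 CPM at 22 °C and 9.28, 4.10 and 5.70 at 10 °C, with no overlap. Its change was −1.87 ± 0.383 (adjusted p = 0.0354, edgeR's quasi-likelihood test, n = 3 and 3), and it was the 1 called member of 6 tested, beside 9.14% of all genes called lower there. It stayed called without any single library, with changes of −2.24 to −1.50, though its adjusted p, 0.000107 to 0.190 over all alternatives, was 0.119 without 10 °C replicate 2 and 0.190 without 10 °C replicate 3. Its neighbour Elane had 1.34, 2.13 and 2.37 CPM at 22 °C and 1.41, 0.936 and 1.04 at 10 °C, overlapping, and was not called (−0.80 ± 0.370, adjusted p = 0.212). In pgVAT Prtn3 had 9.86, 11.9 and 13.7 CPM at 22 °C and 4.23, 5.07 and 3.33 at 10 °C, again with no overlap (−1.48 ± 0.319, adjusted p = 0.593), 0.0154 to 0.969 over all alternatives).

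Mpo and Ctsg, which in marrow accompany Prtn3, were almost missing from the same fat libraries. In bone marrow at 22 °C there were 4.72 reads of Mpo for each read of Prtn3, and in spleen 3.51. The 3 control libraries of ingSAT held 936 reads of Prtn3, 80 of Elane, 4 of Mpo and 2 of Ctsg, and those of pgVAT 390, 50, 2 and 4. The reads in these depots were thus not in the ratio found in bone marrow or spleen. More reads of Prtn3 than of Mpo were also found, at lower levels, in the controls of iBAT (27 against 2, and 21 against 1 in the warm experiment), liver (24 against 1, and 126 against 11 in the warm experiment) and ileum (10 against 0, and 6 against 0 in the warm experiment). The same held in quadriceps (31 against 2), hypothalamus (72 against 30) and brain (49 against 29, and 161 against 17 in the warm experiment). Spinal cord controls had 140 against 143. The iBAT controls of the cold experiment had 31 reads of Elane.

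The adjacent adipocyte gene Cfd, chosen for a look after the values were seen, was abundant in these depots. In ingSAT it had 15943, 15755 and 13776 CPM at 22 °C and 10015, 6380 and 6293 at 10 °C, lower in all cold libraries like Prtn3. In pgVAT it had 11172, 12705 and 9106 CPM at 22 °C and 5754, 18021 and 5538 at 10 °C, so that 10 °C replicate 2, the highest in Cfd, was not high in Prtn3. In iBAT (brown fat) of the warm experiment Cfd had 1402, 1005 and 1171 CPM at 22 °C and 2871, 1852 and 2776 at 34 °C, and Prtn3, which did not pass the filter there, had 0.0368, 0.238 and 0.329 and 1.39, 0.422 and 1.08, both without overlap. Elane, under the filter there too, overlapped, with 0.0736, 0.0594 and 0.219 CPM at 22 °C and 0.0943, 0.329 and 0.176 at 34 °C. In iBAT at 10 °C Cfd was lower in all cold libraries (1498, 1352 and 1727 against 895, 913 and 685 CPM), and Elane, under the filter, had 0.468, 0.727 and 0.5 against 0.148, 0.0680 and 0. Prtn3, under the filter as well, overlapped, with 0.390, 0.727 and 0.375 CPM at 22 °C and 0.396, 0.136 and 0.445 at 10 °C. Values from outside fat are set beside these. In the brain of the warm experiment Cfd had 0 CPM in each library. Prtn3 had 1.03, 0.650 and 1.06 CPM there at 22 °C and 0.792, 1.10 and 1.16 at 34 °C. In the quadriceps controls, fitted with the 34 °C libraries, Cfd had a mean of 158 CPM and Prtn3 of 0.0968. The part of Cfd in the Prtn3 and Elane counts was not tested.

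**Figure D5:**
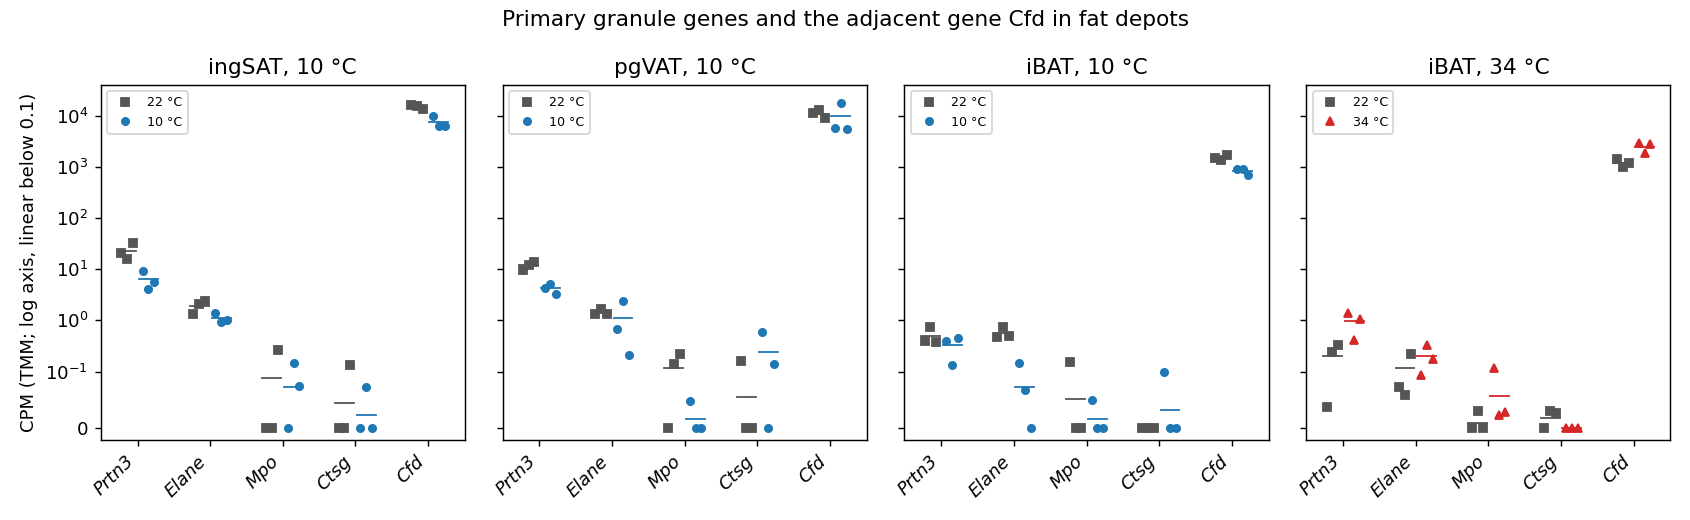
CPM (log axis, linear below 0.1) of the primary granule genes and of Cfd in each library of the fat comparisons, squares at 22 °C, circles at 10 °C and triangles at 34 °C, with short lines at the means. Prtn3 is 4.10 to 32.6 CPM in ingSAT while Mpo is at most 0.264 CPM in the same libraries.

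In pgVAT 7 members were tested and 4 were called, 3 lower and 1 higher, beside 3.47% and 4.46% of all genes there. Lcn2 was the higher one, with 24.5, 32.6 and 57.3 CPM at 22 °C and 366, 5.21 and 1932 at 10 °C (4.34 ± 1.64, adjusted p = 0.593). The cold libraries lay on both sides of the controls. Genes of the epididymis, which adjoins this fat in males, moved with it: Adam7 had 5617, 0.915 and 9957 CPM in the 10 °C libraries and Lcn5 3741, 0.493 and 4439, against 65.7, 230.1 and 244 and 0.736, 1.25 and 126 at 22 °C. Such genes were also counted in iBAT at 10 °C, Adam7 at 1.19, 0.952 and 11.8 CPM and Crisp1 at 0.693, 1.09 and 7.57. The iBAT controls of the cold experiment had 0 of both. The part of epididymis tissue in the Lcn2 values of pgVAT was not tested. Without 10 °C replicate 3 the change of Lcn2 was 2.30 and it was not called, nor was it without any of the 3 controls. S100a8 (2.37, 5.82 and 2.61 against 0.779, 1.41 and 0.424 CPM) and S100a9 (1.59, 1.52 and 3.04 against 0.633, 0.774 and 0.283 CPM) were lower in all cold libraries, with changes of −2.04 ± 0.656 and −1.82 ± 0.638 (adjusted p = 0.593 for both). Each lost its call without 10 °C replicate 1, without 10 °C replicate 3 and without 1 control (replicate 2 for S100a8, replicate 3 for S100a9), with changes no nearer to 0 than −1.45. The cold libraries of S100a9, and 10 °C replicates 1 and 3 of S100a8, lay under the level of the filter. S100a9 thus passed it through its controls, and S100a8 largely so.

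ingSAT had a control that stood apart as well. Its 22 °C replicate 2 held 26.2 CPM of Ltf and 5.11 of Lcn2, while the other libraries had at most 0.962 of Ltf and 1.04 of Lcn2. Camp and Ngp stayed at most 0.518 CPM in all 6 libraries. Neither Ltf nor Lcn2 was called (−4.33 ± 2.04 and −1.64 ± 1.11).

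In quadriceps, the muscle of the thigh, 4 members passed the filter and all 4 were called higher at 10 °C against all 6 controls, beside 2.7% of all genes. The columns of the cold libraries and of 3 controls share the prefix QM, and those of the warm libraries and the other 3 controls the prefix QC, and against the 3 QM controls alone only Ltf stayed called (5.19), while Ngp (5.01), Lcn2 (1.36) and S100a9 (2.88) were not. The 4 members passed the filter through the cold libraries: Ngp had 0, 9.30 and 0 CPM in these and at most 0.136 in the 6 controls (5.88 ± 1.60, adjusted p = 0.171). S100a9 had 0.121, 13.3 and 0.125 CPM at 10 °C and at most 0.896 at 22 °C (3.69 ± 1.24, adjusted p = 0.274). Replicate 2 alone carried both, and it was the highest quadriceps library for 9 of the 10 members. Its Mpo was 1.89 CPM against at most 0.0381 in the controls, and without this library Ngp, S100a9 and Lcn2 did not pass the filter. Ltf had 7.26, 6.35 and 0 CPM at 10 °C (6.17 ± 1.21, adjusted p = 0.0671) and Lcn2 1.72, 3.99 and 0.0715 (1.68 ± 0.698, adjusted p = 0.374), against at most 0.156 and 0.874 at 22 °C. Replicate 1, high in Ltf, also held the epididymis genes Crisp1 at 125 and Adam7 at 36.1 CPM, which no other quadriceps library had, and replicate 3 lay within or below the controls for all 4 called members. The source of the epididymis reads and their part in the Ltf value were not tested. Lcn2 lost its call without 10 °C replicate 1 and without any of 22 °C replicates 3, 4, 5 and 6, at changes of 1.59 to 1.77, and DESeq2 called 2 of the 4 members. A count of 0 in the 10 °C libraries allowed up to 0.0592 CPM, counting error only.

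In liver 2 members were tested, and S100a9 was called higher at 10 °C, beside 0.74% of all genes. It had 0.603, 0.783 and 0.475 CPM at 22 °C and 1.90, 1.15 and 1.81 at 10 °C, without overlap (1.38 ± 0.323, adjusted p = 0.115), and stayed called without any single library (1.21 to 1.58). Its controls all lay under the level of the filter (average log2 CPM above 0) and its cold libraries above it. S100a9 thus entered the test through the cold libraries, and the call is in part set by the filter. Lcn2 had 1.21, 14 and 1.19 CPM at 22 °C and 2.33, 2.07 and 3.75 at 10 °C and was not called (−0.99 ± 0.825); control replicate 2 stood apart. The granule genes other than Lcn2 and Prtn3 were at most 0.184 CPM in the liver libraries of the cold experiment. In the warm experiment, liver 22 °C replicate 1 stood apart, with 1.36 CPM of Ltf, 0.705 of Camp and 1.53 of Ngp. The other liver controls there had at most 0.0545 CPM of each.

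At 22 °C the summed CPM of the secondary granule genes was 15.4 to 32.5 (median 19.4) in spinal cord, 7.27 to 8.73 (median 8.53) in brain and 0.283 to 0.785 (median 0.759) in hypothalamus, and single cold libraries stood above the rest in each. In spinal cord 8 members were tested and 2 were called higher, beside 0.181% of all genes. Mpo had 1.60, 0.662, 1.02, 0.644 and 1.35 CPM at 22 °C and 2.04, 1.24, 5.55, 1.07 and 1.22 at 10 °C (1.08 ± 0.468, adjusted p = 0.780). Prtn3 had 1.53, 0.801, 0.868, 1.01 and 0.974 and 1.82, 1.20, 2.10, 1.73 and 0.965 (0.59 ± 0.246, adjusted p = 0.780). The groups overlapped for both, and 10 °C replicate 3 was the highest library for all 10 members. Without it Mpo changed by 0.40 and Prtn3 by 0.45, and neither was called; both calls were also lost without 10 °C replicate 1 and without 22 °C replicates 2, 3 or 4, and that of Prtn3 without 10 °C replicate 4 or 22 °C replicate 5. The red cell gene Alas2 had 12.5, 7.84, 12.7, 10.3 and 12.3 CPM at 22 °C and 25, 18.2, 30.3, 11.0 and 26 at 10 °C. In hypothalamus Alas2 had 24.5, 25.2 and 23.8 CPM at 22 °C and 33.5, 29.4 and 25.4 at 10 °C. The cold libraries of brain had 16.4, 17.3 and 15.7. Alas2 is an uncertain mark of blood left in a tissue: brain controls had 12.4, 107 and 11.8 CPM of Alas2, but 144, 139 and 111 of the hemoglobin gene Hbb-bs. The cold brain libraries had 145, 185 and 218 CPM of Hbb-bs. In hypothalamus Hbb-bs had 65.3, 119 and 78.8 CPM at 22 °C and 127, 129 and 128 at 10 °C. The part of blood in the members' values of spinal cord, brain and hypothalamus was not tested.

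In hypothalamus 1 of 2 tested members, S100a9, was called higher, beside 0.399% of all genes, with 0.262, 0.442 and 0.615 CPM at 22 °C and 0.457, 4.92 and 0.223 at 10 °C (2.06 ± 0.877, adjusted p = 0.799). Replicate 2 alone was above the controls, without it the gene did not pass the filter, and the call was also lost without any of the 3 controls. In brain, where 2.72% of all genes were called, 0 of 7 tested members were called by edgeR's quasi-likelihood test, by the exact test or by DESeq2, and 0 had an unadjusted p of at most 0.05. S100a9 had 5.01, 7.67 and 4.97 CPM at 22 °C and 3.54, 5.12 and 17.1 at 10 °C, and 10 °C replicate 3 was the highest library for 9 of the 10 members. In iBAT and ileum at 10 °C, 0 of 2 tested members each were called by the same 3 tools, beside 13.2% and 2.71% of all genes, and 0 had an unadjusted p of at most 0.05 by edgeR's quasi-likelihood test.

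At 34 °C 0 members were called by edgeR's quasi-likelihood test in the 5 tissues. Only 5 pairs passed the filter, in iBAT, liver and brain, where 19.4%, 3.38% and 0.193% of all genes were called, and 0 had an unadjusted p of at most 0.05, while the exact test called 1 and DESeq2 called 2. Those are Lcn2 in liver, with both tools, and Lcn2 in iBAT, with DESeq2. In liver Lcn2 had 5.76, 8.15 and 3.37 CPM at 22 °C and 2.42, 3.28 and 4.62 at 34 °C (−0.74 ± 0.339, adjusted p = 0.468), with overlapping groups. In iBAT it had 0.368, 0.535 and 0.383 CPM at 22 °C and 0.330, 4.01 and 0.410 at 34 °C (1.88 ± 0.966, adjusted p = 0.175), with 34 °C replicate 2 alone above the controls. In ileum and quadriceps at 34 °C, with 2.83% and 1.25% of all genes called, 0 members passed the filter, at summed levels of 1.42 to 1.97 (median 1.66) and 0.452 to 1.82 (median 0.988) CPM. Bone marrow and spleen were not analysed here at 34 °C.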

How the data were processed

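The authors deposited tables of raw counts per gene, not normalised. Per the methods, single-end reads were aligned to mm10 with STAR and counted with HTSeq. The submitters' processing notes name STAR 2.5.3a, Picard 1.141 and HTSeq 0.6p1, and the annotation and strand setting are not given in the sources used here. Samples were grouped by their labels, and columns by their names. The column names of the warm experiment and of quadriceps show tissue and treatment, not which titled sample. Their replicate numbers therefore follow column order. A spinal cord control column carries a number that no spinal cord title has. It was used as 22 °C replicate 5 and left out of the replicate block.

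All genes of a comparison were fitted together, using only its libraries, with edgeR 4.0.16 (R 4.3.3): genes with average log2 CPM above 0, TMM factors, two-sided quasi-likelihood F-test, Benjamini-Hochberg adjustment over all genes tested. A call needed a fold change above 1.5 and an unadjusted p no higher than 0.05, limits the study's methods use. The labels do not divide the 6 quadriceps controls, so all 6 entered both quadriceps comparisons, which share them. Per the methods each experiment had its own controls, and the column prefixes QM (cold libraries, 3 controls) and QC (warm libraries, 3 controls) may mark these, so each set was also used alone, chosen after seeing the data. Group values are means ± SD over libraries, the granule balance used log2 CPM with a prior count of 2, and a count of 0 was taken to allow 3 counts (counting error only). The tests were tested on simulated data. Alternatives were the exact test (the authors' test), DESeq2 1.42.0, library size scaling, other filters, a replicate block, and leaving out each library.

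The members and gene lists were chosen with earlier results of these data known. Members were all described, and of each other list at most 4 called genes, by smallest p, were named. A few uncalled genes were named as well, to show what their lists hold. Cfd, the epididymis genes and the red cell genes Alas2 and Hbb-bs were looked up after the values were seen. Symbols came from the tables or, for 21583 of 21647 identifiers of the table of 8 tissues, from a RefSeq gene table, and sequences from RefSeq. ingSAT and pgVAT at 34 °C were not analysed here.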

Additional observations from a re-analysis of the deposited data

Results flagged for a closer look

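In spinal cord, 2 libraries stood far from the others of their group by Dixon's test at the 95% level. The 10 °C replicate 3 did so for Mpo at 5.55 CPM, Camp at 13.5, Ngp at 26.7, Lcn2 at 11.3, S100a8 at 37.5 and S100a9 at 63.3 CPM. The 22 °C replicate 1 did so for Prtn3 at 1.53 CPM, Camp at 4.70 and Lcn2 at 5.48 CPM. These are 9 of 40 tests of a member in a group of 4 to 10 libraries, where chance gives about 5% of groups, and members of 1 library are not independent of each other.

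S100a9 moved in opposite directions between tissues at 10 °C: it was higher in every cold liver library, with a log2 fold change of 1.38, and lower in every cold library of spleen (−2.17) and of pgVAT (−1.82). In liver S100a9 passed the filter on low counts through its cold libraries, and in pgVAT through its controls. The difference between the tissues was not tested.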

How the results depend on the processing

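Of 291 refits of the 23 called pairs of a member and a tissue, 253 kept direction and call, 38 kept the direction and lost the call, and 0 turned the direction; 180 refits of the 10 members in bone marrow, none called, kept the direction and gave no call. At an adjusted p under 0.05 in place of the call limits, 8 members in bone marrow, 6 in spleen and 1 in the other 9 tissues (in ingSAT) passed, all lower. Beside them, 11.6% of all genes tested were lower and 7.33% higher in bone marrow. In spleen 0.0779% were lower, and in ingSAT 2.9%. The members were chosen on the bone marrow and spleen contrasts, so these counts are a description. Of the other lists, 61 genes passed in bone marrow (6 called) and 4 in spleen (33 called). The 6 members in spleen became 10 with the exact test, DESeq2 or the replicate block and 0 to 8 without 1 library: 0 without 10 °C replicate 1, 2 or 3 or 22 °C replicate 2, and 3 without 22 °C replicate 3. The calls of the other lists ran from 3 (without 22 °C replicate 5) to 8 in bone marrow and from 26 to 41 in spleen when 1 library was left out. With no filter beyond 1 count, 23 members were called in the other 9 tissues, and 10 to 15 without 1 library. At 34 °C, the exact test called 1, DESeq2 2, library size scaling 1, filterByExpr 2 and no filter 7 members, and 0 to 1 without 1 library (Lcn2 in iBAT without 34 °C replicate 1 or 3, Lcn2 in liver without 22 °C or 34 °C replicate 3, S100a9 in brain without 22 °C replicate 2). The primary minus secondary balance moved by less than the spread of the libraries, between 0.16 and 0.26 in bone marrow and −0.13 and 0.26 in spleen without 1 library. Against the 3 quadriceps controls whose columns share the prefix QM with the cold libraries, chosen after seeing the data, Lcn2 (1.36), Ngp (5.01) and S100a9 (2.88) lost their calls, and against the 3 with the prefix QC of the warm libraries Lcn2 did (2.08). Without 10 °C replicate 2, Ngp, Lcn2 and S100a9 in quadriceps and S100a9 in hypothalamus did not pass the filter and gave no value. The cause of these differences was not tested, except that other filters and adjusted p test other genes or limits.

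The cold and control mice were different animals, so same-numbered libraries of a tissue cannot share mice by design. In no tissue did every pair of same-numbered libraries correlate above 0.1 in their deviations from the group means (−0.19 to 0.09 in bone marrow, −0.69 to 0.09 in spleen). With so few libraries per group, these correlations cannot show whether the numbers mark anything else that was shared. With the number as a replicate block, 0 members were called in bone marrow (8 at an adjusted p under 0.05), 10 in spleen and 11 in the other tissues, where Lcn2 (2.92) and S100a9 (−1.81) in pgVAT lost their call, and 5 and 33 genes of the other lists in bone marrow and spleen. Outside bone marrow some members rest on few reads, as the spleen primary genes do in the cold. Others vary widely between libraries, as Lcn2 does in pgVAT.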

Other observations

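The ratio of summed CPM of S100a8 and S100a9 to that of the 4 primary granule genes ran from 7.49 to 11.1 in bone marrow at 22 °C and from 6.63 to 8.49 at 10 °C. In spleen it was 6.88, 9.74 and 8.40 in the libraries at 22 °C and 21.5, 9.48 and 12.5 at 10 °C, and the groups overlapped in both tissues. No test was run on this ratio.

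Brain controls at 22 °C had summed CPM of the 10 members of 17.9 to 21.5 (median 19) in the cold experiment and 2.35 to 5.35 (median 3.85) in the warm experiment, without overlap. The libraries of the warm experiment are labelled as brain without hypothalamus from mice of 12 weeks, those of the cold experiment as brain from mice of 11 weeks. Totals were 48996910 to 62880248 against 12663232 to 19128444 counts, and kit, sequencing site and mouse supplier differed too. These differences cannot be told apart.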
